A study of Mus musculus with 9 samples.

Results

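YAP and TAZ are transcriptional coactivators that have no DNA-binding domain of their own and reach their target genes through the TEAD family of transcription factors. Hippo signalling acts on them from upstream: the MST kinases activate the LATS kinases, LATS phosphorylates YAP and TAZ, and the phosphorylated proteins are kept out of the nucleus or degraded. Their output rises with cell spreading, stiff substrates and actin tension, and it is closely tied to TGF-β signalling, because SMAD proteins and YAP/TAZ share target genes in mesenchymal and epicardium-derived cells. An mRNA level says nothing on phosphorylation or nuclear localization of YAP and TAZ, which were not measured here.

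The 10 genes described here are the coactivators Yap1 and Wwtr1 (the gene of TAZ), the DNA-binding partners Tead1, Tead2, Tead3 and Tead4, and the target genes Cyr61, Ankrd1, Amotl2 and Ajuba. They were picked by gene symbol from 54532 genes of the deposited table, and each symbol matched 1 gene. All 10 passed the filter on low counts in each of the 3 comparisons.

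RNA was sequenced from 9 libraries of mouse cells grown out of heart ventricle epicardium of the C57BL/6 strain, 3 per group. pECDCs are primary epicardium cardiosphere-derived cells without treatment. Their samples are titled P0, whereas the methods of the study put primary cells for later experiments at passage 3. iECDCs are such cells immortalized with telomerase reverse transcriptase (hTERT), taken at passage 30. The treated group is given in the labels as the immortalized cells at passage 30 after 3 days with SB431542, which blocks the kinase activity of the type I TGF-β receptors. The methods of the study name a different cell source for the treated group, an epithelial clone derived from pECDCs, so the treated libraries were compared with both other groups. The cells came from explant culture and were selected for lentiviral integration in the immortalized line, so that immortalization, passage and culture history cannot be told apart in the comparison of iECDCs with pECDCs. The methods call the replicates biological but give another number per condition than the 3 libraries of each group. A figure legend of the study on RNA sequencing of pECDCs and iECDCs gives n = 3. Whether the 3 libraries of a group came from separate cultures is not stated. The p-values then measure only the spread between these libraries.

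Total counts ran from 16568306 to 23951392 per library. A pair of libraries stood apart from the rest of their groups. Over genes, the chi-square per degree of freedom between replicates was 24.9 and 30.8 for iECDC replicate 3 against the others of its group, where the remaining iECDC pair gave 4.61. For SB431542-treated replicate 2 it was 70.3 and 71.6, where the remaining treated pair gave 3.79. In pECDCs it ran from 2.70 to 4.23. Several values of the 10 genes, and counts over gene lists, are given with and without these libraries.

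Markers of the cell types that the cultures could hold were also read. The 6 mesenchymal genes that mark cardiosphere-derived cells (Eng, Thy1, Ly6a, Pdgfra, Col1a1, Col3a1) were all at a mean of 1 FPKM or more in every group. Their summed FPKM ran from 944 to 968 in pECDCs and from 780 to 885 in iECDCs. It was 1214, 657 and 1120 in treated replicates 1 to 3, lowest in the library that stood apart. Col1a1 (means of 647, 528 and 599 FPKM) carried most of each sum. By mean, Pdgfra and Col3a1 were, like Col1a1, lowest in iECDCs. Eng and Thy1 were instead highest there, and Ly6a was highest in treated cells. FPKM are fragments per kilobase of gene length, scaled to a size of each library, which allows levels of different genes to be compared. The size behind the deposited FPKM ran from 92.8% of the total count in iECDC replicate 3 to 105% in treated replicate 3. Of the 9 epicardial markers, 3 reached a mean of 1 FPKM in pECDCs, 3 in iECDCs and 4 in treated cells. In that order of groups, the summed FPKM of all 9 ran from 44.4 to 46.0, from 51.4 to 59.8 and from 64.6 to 68.5. Krt19 (means of 19.0, 30.0 and 28.0 FPKM) and Tbx18 (19.6, 22.4 and 34.8) carried most of each sum. Aldh1a2 fell from 5.50 to 2.82 and 0.429 FPKM. Upk3b and Tcf21 reached 1.28 and 1.43 FPKM in treated cells and were under 1 elsewhere. Wt1, Msln, Krt8 and Krt18 were under 1 FPKM in every group. The 6 endothelial markers together reached at most 0.165 FPKM in any library, the 6 cardiomyocyte markers at most 2.31 and the 6 blood cell markers at most 10.7. Smooth muscle and myofibroblast markers, which are known TGF-β responsive genes, summed to 736 to 758 FPKM in pECDCs, 834 to 1940 in iECDCs with the highest sum in replicate 3, and 149 to 342 in treated cells with the highest sum in replicate 2. Acta2 carried most of each sum.

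The origin of the treated libraries was checked with 4 genes that separate iECDCs from pECDCs. Cdkn2a, which encodes cell cycle inhibitors, had 550, 407 and 562 counts in pECDCs, at most 1 in iECDCs and 0 in every treated library. Barx1 had 349 to 385 counts in pECDCs and at most 1 in any other library. Pdpn had 1816 to 2534 in pECDCs, 3 to 13 in iECDCs and 1 to 4 in treated cells, and Efemp1 had 548 to 587, 0 to 5 and 8 to 24. In all 4 genes the treated libraries lay near the iECDC libraries and far from the pECDC libraries.

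The stretches of sequence upstream of the 4 target genes are shown because TEAD factors recognize the letters GGAATG. All 4 genes were called lower in treated cells than in iECDCs in the main fit, whereas Ajuba was not called against pECDCs. The windows come from RefSeq on GRCm38.p6, were found for 8 of the 10 genes, and reach from 250 bases before each annotated start to 50 bases after it. Those for Cyr61 and Ajuba are printed over the 250 bases before the start. For Ankrd1 and Amotl2, whose windows overlap exons of other annotated transcripts of the same gene, 30 bases around each match are printed. Capitals mark GGAATG, or CATTCC where the match is on the opposite strand.
Cyr61, chr3:145649986-145650235, minus strand: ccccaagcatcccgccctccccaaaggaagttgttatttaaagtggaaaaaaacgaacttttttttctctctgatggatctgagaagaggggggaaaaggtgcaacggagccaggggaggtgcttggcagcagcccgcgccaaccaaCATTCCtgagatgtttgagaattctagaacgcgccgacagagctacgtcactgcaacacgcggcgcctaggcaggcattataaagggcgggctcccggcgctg
Ankrd1, chr19:36120037-36120066, minus strand: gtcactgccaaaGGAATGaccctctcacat
Ankrd1, chr19:36119950-36119979, minus strand: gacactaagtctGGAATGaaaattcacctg
Amotl2, chr9:102717727-102717756, plus strand: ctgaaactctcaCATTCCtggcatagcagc
Ajuba, chr14:54577662-54577911, minus strand: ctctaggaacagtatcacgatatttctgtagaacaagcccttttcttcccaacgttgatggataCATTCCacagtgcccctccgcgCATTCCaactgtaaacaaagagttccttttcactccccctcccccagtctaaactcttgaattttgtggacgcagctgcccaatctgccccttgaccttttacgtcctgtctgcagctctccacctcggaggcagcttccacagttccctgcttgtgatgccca

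Counted from the annotated start, the match began at -103 in Cyr61, at -210 and -123 in Ankrd1, at -65 in Amotl2 and at -186 and -164 in Ajuba. GGAATG on either strand was in at least 1 window of 7 of the 8 genes, Yap1, Wwtr1 and Tead3 included and Tead2 excepted. Over all 27025 genes with a window it was in 16.6%. The AP-1 motif TGANTCA, present in 8.97% of all genes, and the CArG box bound by serum response factor, present in 1.81%, had no match in the windows of the 8 genes. Tead1 and Tead4 had no window in the table used. A match describes letters only, and binding was not measured.

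The targets Cyr61 and Ankrd1 were among the most abundant mRNAs of all groups. Cyr61 encodes a secreted matricellular protein of the CCN family, and Ankrd1 a cardiac ankyrin repeat protein found in the nucleus and the sarcomere. By mean FPKM, Cyr61 ranked 55th of 54532 genes in pECDCs, 47th in iECDCs and 131st in treated cells, and Ankrd1 ranked 81st, 63rd and 266th. Amotl2, an angiomotin family protein that binds YAP, followed at 90.8, 95.2 and 70.7 FPKM. Below these came a group of 5 genes of similar level, Tead1, Tead2, Wwtr1, Yap1 and Ajuba, from 20.5 to 33.0 FPKM. Each neighbour in that order overlapped the next in library values within every group. Tead3 and Tead4 were lower and did not overlap with the genes above them or with each other. Cyr61 and Ankrd1 did not overlap in pECDCs, and did in iECDCs and in treated cells.

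**Figure D1:**
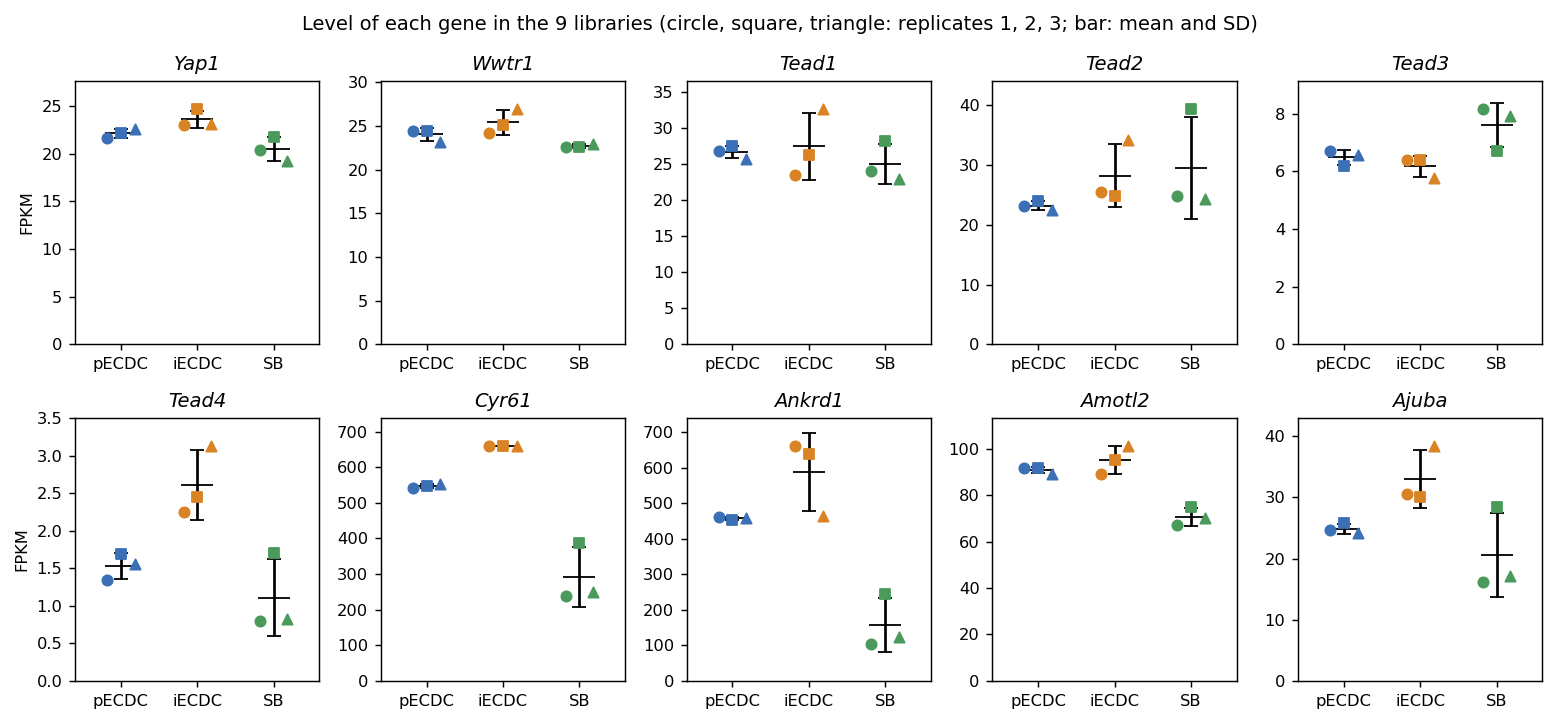
FPKM (linear axis from 0) of each of the 10 genes in pECDC (blue), iECDC (orange) and SB431542-treated (SB, green) libraries, with the 3 replicates as separate symbols and the mean and SD as bars (n = 3). Cyr61 and Ankrd1 are lowest in the treated libraries, where replicate 2 (square) lies above the other replicates, at 389 and 245 FPKM.

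The coactivators stayed within a narrow range over the 9 libraries. Yap1 was at 21.6, 22.2 and 22.6 FPKM in pECDC replicates 1 to 3, at 23.1, 24.7 and 23.2 in iECDC replicates and at 20.4, 21.8 and 19.3 in treated replicates. The iECDC libraries were all above the others. Wwtr1 was at 24.5, 24.5 and 23.2, at 24.2, 25.2 and 26.9 and at 22.6, 22.6 and 22.9 FPKM, with every treated library below every other library. The ratio of Wwtr1 to Yap1 FPKM was 1.09 ± 0.055 in pECDCs, 1.08 ± 0.076 in iECDCs and 1.11 ± 0.076 in treated cells (SD, n = 3).

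Neither coactivator passed the test in any of the 3 comparisons. Here and throughout, a gene passed where the adjusted p of edgeR's quasi-likelihood test, corrected over all tested genes by Benjamini-Hochberg, was under 0.05. For Yap1 the log2 fold change was 0.08 between iECDCs and pECDCs (95% interval -0.05 to 0.21, adjusted p = 0.388), -0.20 between treated cells and iECDCs (-0.43 to 0.04, adjusted p = 0.179) and -0.10 between treated cells and pECDCs (-0.27 to 0.06, adjusted p = 0.290). For Wwtr1 it was 0.07 (-0.08 to 0.21), -0.15 (-0.37 to 0.07) and -0.07 (-0.22 to 0.07). With treated replicate 2 left out, Yap1 passed as lower in treated cells, at -0.24 against iECDCs (adjusted p = 0.0467) and -0.15 against pECDCs (adjusted p = 0.00667). Wwtr1 did not pass there. The 3 comparisons share libraries pairwise, so their values are given side by side and are not independent.

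Tead1 and Tead2 made up most of the TEAD mRNA. As a share of the summed FPKM of the 4 family members, Tead1 took 46.0% ± 0.36 in pECDCs, 42.5% ± 1.6 in iECDCs and 39.8% ± 2.4 in treated cells (SD, n = 3). Tead2, a member known for expression in embryonic tissue, took 40.1% ± 0.30, 43.7% ± 2.0 and 46.1% ± 5.0. In each pECDC library Tead1 was per length the higher of the pair, and in each treated library Tead2 was. Tead3 took 11.2% ± 0.69, 9.78% ± 1.9 and 12.4% ± 3.0. Tead4 took 2.65% ± 0.28, 4.04% ± 0.13 and 1.70% ± 0.48, with no overlap between the groups in this share. These shares were not tested.

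Of the 4 TEAD genes, only Tead4 passed the test in the main fits. Tead4 was at 1.35, 1.69 and 1.56 FPKM in pECDCs, at 2.24, 2.45 and 3.13 in iECDCs and at 0.79, 1.70 and 0.83 in treated cells. All iECDC libraries lay above all others, and treated replicate 2 lay at the level of the pECDCs. Tead4 was 1.68-fold higher in iECDCs than in pECDCs (log2 fold change 0.75, SE 0.158, adjusted p = 0.0126) and fell with SB431542 to 0.432 times the iECDC level (log2 -1.21, SE 0.310, adjusted p = 0.0223). Between treated cells and pECDCs its log2 fold change was -0.45 (95% interval -1.16 to 0.27, adjusted p = 0.287). Tead4 was the lowest of the family in every library. The first call was lost without pECDC replicate 1 or 3, and the second without any single library other than treated replicate 2. With that library left out the log2 fold changes were -1.67 against iECDCs (adjusted p = 0.000221) and -0.90 against pECDCs (adjusted p = 0.000152). Without iECDC replicate 3, Tead4 was at 0.61 between iECDCs and pECDCs (adjusted p = 0.00280).

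The other TEAD genes did not pass. Tead1 was at 26.8, 27.4 and 25.7 FPKM in pECDCs, at 23.5, 26.2 and 32.6 in iECDCs and at 24.0, 28.1 and 22.9 in treated cells. The log2 fold changes of Tead1 were 0.03, -0.12 and -0.08 in the 3 comparisons. Leaving out iECDC replicate 3 turned the sign of the first to -0.11 and of the second to 0.0063, and without treated replicate 2 Tead1 passed as lower in treated cells than in pECDCs (-0.18, adjusted p = 0.00227). Tead2 was at 23.2, 24.0 and 22.5 FPKM, at 25.5, 24.8 and 34.3 and at 24.9, 39.4 and 24.3. Its high values were those of iECDC replicate 3 and treated replicate 2, the libraries that stood apart. Between treated cells and iECDCs the log2 fold change of Tead2 was 0.08 (adjusted p = 0.793). Without treated replicate 2 it was -0.19 (adjusted p = 0.2975). Against pECDCs it ran from 0.09 to 0.47 over left-out libraries, where the lowest adjusted p was 0.0761. Tead3 was at 6.70, 6.18 and 6.58 FPKM, at 6.37, 6.38 and 5.76 and at 8.15, 6.72 and 7.91. Every treated library was above every other in Tead3, and the log2 fold change of treated cells was 0.31 against iECDCs (95% interval 0.05 to 0.57, adjusted p = 0.0728) and 0.24 against pECDCs (0.01 to 0.46, adjusted p = 0.0946). It passed when treated replicate 2 was left out, at 0.39 (adjusted p = 0.00694) and 0.32 (adjusted p = 0.000129).

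Of the 4 target genes, Ankrd1 and Cyr61 had the lowest log2 fold changes with SB431542. Cyr61 was at 542, 549 and 554 FPKM in pECDCs, at 659, 660 and 659 in iECDCs and at 238, 389 and 250 in treated cells. The 3 groups did not overlap, and treated replicate 2 was the highest of its group. Cyr61 fell to 0.446 times the iECDC level (log2 fold change -1.16, SE 0.194, adjusted p = 0.00484) and was at 0.536 times the pECDC level (-0.90, SE 0.182, adjusted p = 0.00975). Without treated replicate 2 these were -1.42 (adjusted p = 5.68e-06) and -1.16 (adjusted p = 6.13e-14). Over left-out libraries the highest adjusted p of Cyr61 was 0.027 against iECDCs and 0.0443 against pECDCs. In bulk RNA, fewer cells that express a gene and less RNA per cell cannot be told apart.

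Ankrd1 was at 462, 453 and 457 FPKM in pECDCs, at 661, 639 and 463 in iECDCs and at 105, 245 and 124 in treated cells. Again every treated library was below every other library. iECDC replicate 3 lay at the level of the pECDCs, and treated replicate 2 lay above the other treated libraries. Ankrd1 fell to 0.271 times the iECDC level (log2 fold change -1.89, SE 0.318, adjusted p = 0.00504) and was at 0.347 times the pECDC level (-1.53, SE 0.297, adjusted p = 0.00836). The values without treated replicate 2 were -2.35 (adjusted p = 1.04e-05) and -1.99 (adjusted p = 1.70e-15). Over left-out libraries the highest adjusted p of Ankrd1 was 0.0278 against iECDCs and 0.0371 against pECDCs. The ratio of Ankrd1 to Cyr61 FPKM was 0.834 ± 0.015 in pECDCs, 0.891 ± 0.16 in iECDCs and 0.522 ± 0.098 in treated cells (SD, n = 3), below every untreated library in each treated library. That ratio was not tested. The falls of Cyr61 and Ankrd1 passed the test in all 16 alternatives run against iECDCs and in all 15 run against pECDCs.

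Amotl2 fell less. It was at 91.6, 91.8 and 89.2 FPKM in pECDCs, at 89.2, 95.1 and 101 in iECDCs and at 67.0, 74.7 and 70.4 in treated cells. The treated libraries lay below all others, whereas pECDCs and iECDCs overlapped. Amotl2 fell to 0.749 times the iECDC level (log2 fold change -0.42, SE 0.113, adjusted p = 0.0274) and was at 0.783 times the pECDC level (-0.35, SE 0.0733, adjusted p = 0.0107). The first call was lost without any single library other than treated replicate 2 (adjusted p of 0.0503 to 0.129), and the second without pECDC replicate 1 or 2 (0.0605 and 0.0624). Without treated replicate 2 the log2 fold change of Amotl2 was -0.46 against iECDCs (adjusted p = 0.00383) and -0.39 against pECDCs (adjusted p = 2.54e-07).

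Ajuba, a LIM domain protein that binds the LATS kinases, was at 24.7, 25.8 and 24.1 FPKM in pECDCs, at 30.5, 30.1 and 38.4 in iECDCs and at 16.1, 28.5 and 17.1 in treated cells. Treated replicate 2 lay above all pECDC libraries while the other treated libraries lay below them. Ajuba was 1.31-fold higher in iECDCs than in pECDCs (log2 fold change 0.39, SE 0.0946, adjusted p = 0.0223) and fell to 0.629 times the iECDC level with SB431542 (-0.67, SE 0.218, adjusted p = 0.0494). Against pECDCs the treated cells gave -0.26 (95% interval -0.74 to 0.22, adjusted p = 0.347). The first call was lost without pECDC replicate 1, 2 or 3 (adjusted p of 0.0730 to 0.0995), and the second without any single library other than treated replicate 2 (0.0969 to 0.168). Without treated replicate 2 the values of Ajuba were -0.98 against iECDCs (adjusted p = 0.000231) and -0.57 against pECDCs (adjusted p = 1.60e-08). Without iECDC replicate 3, Ajuba was at 0.28 between iECDCs and pECDCs (adjusted p = 0.000287).

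Between iECDCs and pECDCs, Cyr61 was 1.19-fold higher in iECDCs (log2 fold change 0.25, SE 0.059, adjusted p = 0.0202), a call that was lost without pECDC replicate 1, 2 or 3 or iECDC replicate 2 (adjusted p of 0.0505 to 0.114). Ankrd1 was at a log2 fold change of 0.35 (95% interval 0.07 to 0.63, adjusted p = 0.0885). Without iECDC replicate 3 it passed at 0.50 (adjusted p = 4.16e-08). For Amotl2 the log2 fold change was 0.05 (-0.10 to 0.20, adjusted p = 0.621), and for Tead2 it was 0.26 (0.01 to 0.52, adjusted p = 0.149). Without iECDC replicate 3, Amotl2 was at 0.01 (adjusted p = 0.863), Tead2 at 0.11 (adjusted p = 0.0809) and Cyr61 at 0.26 (adjusted p = 2.42e-05).

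**Figure D2:**
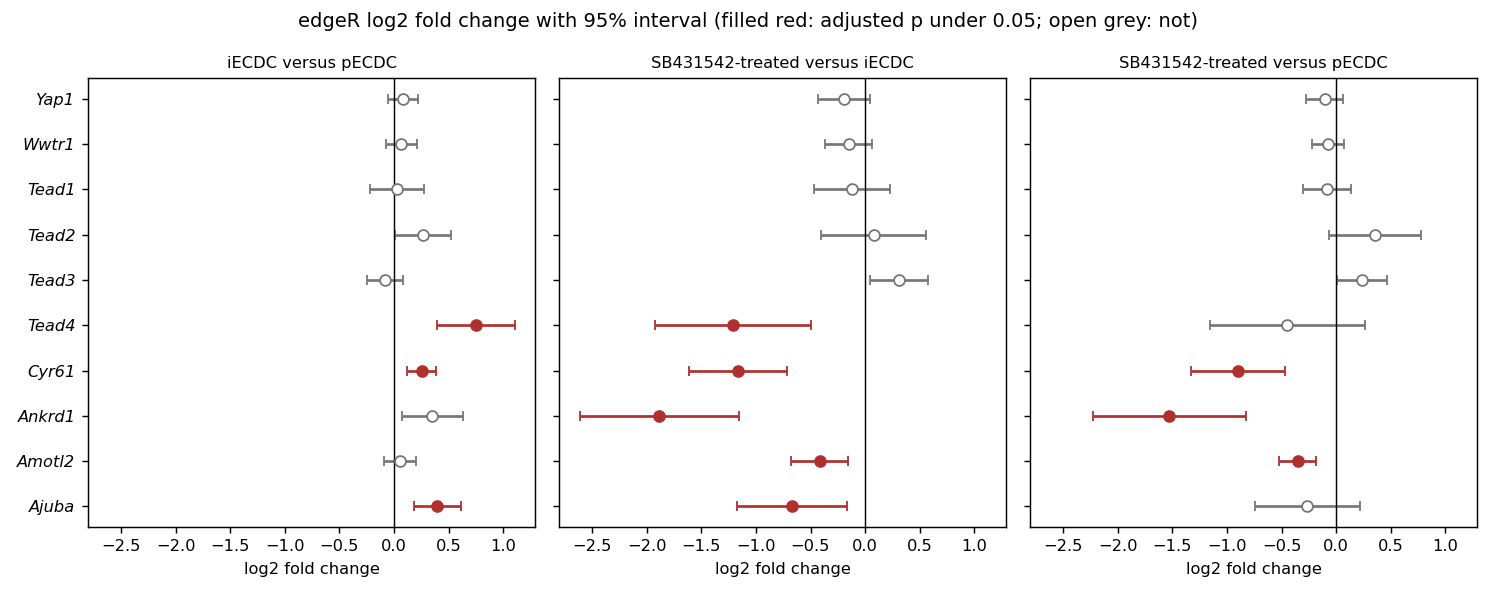
log2 fold change (horizontal axis) of each gene with its 95% interval in the 3 comparisons, from edgeR on the counts of the compared libraries, filled where the adjusted p was under 0.05. With SB431542 the values are lowest for Ankrd1, at -1.89 against iECDCs and -1.53 against pECDCs, while the intervals of Yap1 and Wwtr1 include 0 in all 3 panels.

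As a group, 3 of the 10 genes rose and 0 fell in iECDCs against pECDCs, where 16.4% of all 13752 tested genes were called, 7.21% as higher and 9.21% as lower. At an unadjusted p under 0.05 these counts were 5 and 0, where 31.5% of all tested genes passed, and DESeq2 called 4 and 0. With SB431542, 0 rose and 5 fell against iECDCs, where 30% of 13559 tested genes were called, 16% as higher and 14% as lower. At an unadjusted p under 0.05 edgeR gave 1 and 5, where 43.4% of all tested genes passed, and DESeq2 called 0 and 5. Against pECDCs, 0 rose and 3 fell in treated cells, where 34.8% of 14015 tested genes were called, 17.9% as higher and 17% as lower. At an unadjusted p under 0.05 edgeR gave 1 and 3, where 46.2% of all tested genes passed, and DESeq2 called 0 and 3. The median log2 fold change of the 10 genes was 0.17, -0.31 and -0.18, where that of all tested genes was -0.002, 0.001 and 0.007. Library values of the groups did not overlap for 6 of the 10 genes between iECDCs and pECDCs, all higher in iECDCs, against 39.9% of all tested genes in either direction and 20.7% as higher and 19.2% as lower. Between treated cells and iECDCs they did not overlap for 8, 7 of them lower in treated cells, against 46.5% of all tested genes, 23% as higher and 23.5% as lower. Between treated cells and pECDCs they did not overlap for 6, 4 of them lower, against 51.5%, 25.1% as higher and 26.4% as lower.

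The number of these genes called moved when libraries were left out. Without treated replicate 2, 7 of the 10 genes passed against iECDCs, 6 lower and 1 higher, where 50.2% of all tested genes were called, and 8 against pECDCs, 7 lower and 1 higher, where 64.1% were. Without iECDC replicate 3, 2 passed in treated cells against iECDCs, where 25.4% of all tested genes were called, and without both of these libraries 7 did, where 64.5% were. The edgeR fit of all 9 libraries called 0 of the 10 genes between iECDCs and pECDCs, with 1 at an unadjusted p under 0.05. That fit called 4.72% of all tested genes. The sum of the smooth muscle and myofibroblast markers, most of it Acta2, moved with the target genes over the groups and within the treated group, where replicate 2 had the highest sum, 342 FPKM against 149 and 150, and also the highest Cyr61, Ankrd1, Amotl2 and Ajuba. Smtn moved like Acta2. Cnn1 (3.15 and 2.80 FPKM) and Tagln (1.42 and 1.44) in iECDC replicates 1 and 2 were instead below their pECDC means (5.22 and 1.85). Within iECDCs, replicate 3 had the highest marker sum, 1940 FPKM against 834 and 869, the lowest Ankrd1 and the highest Amotl2 and Ajuba. Cyr61 differed little between the iECDC libraries. The part of this in the results was not tested.

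**Figure D3:**
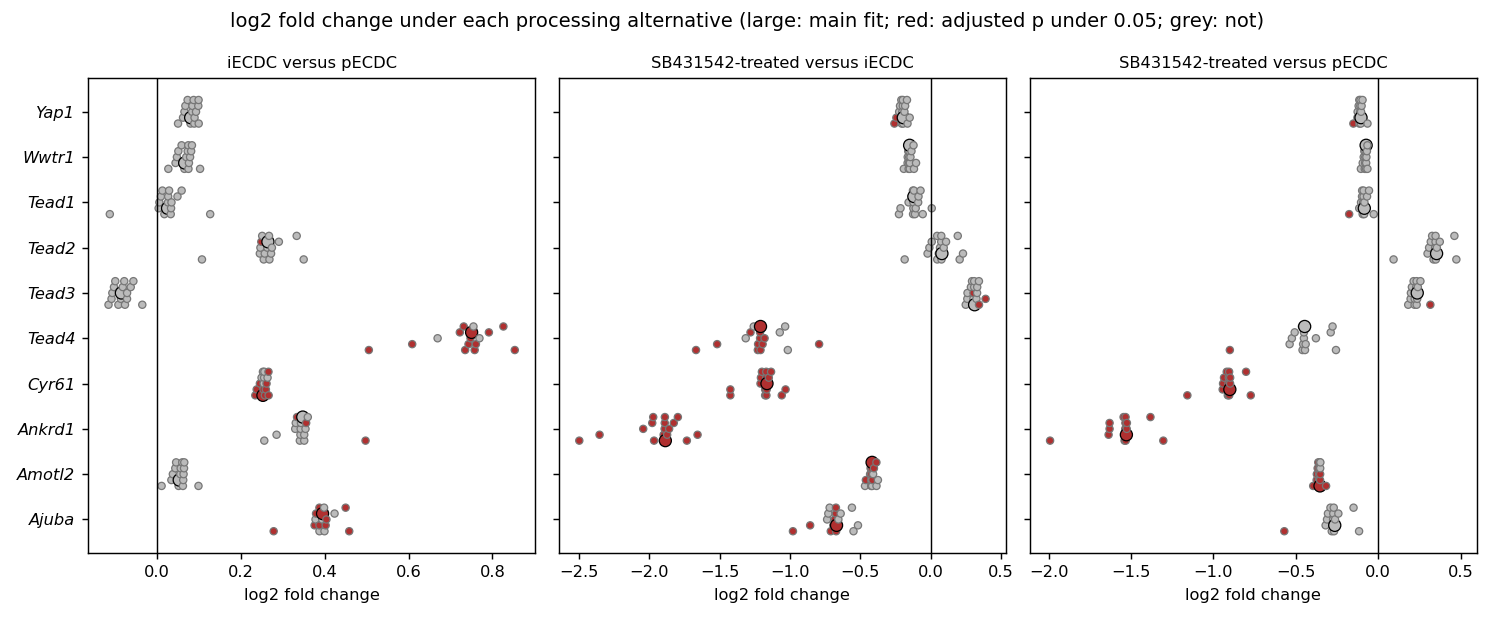
log2 fold change (horizontal axis) of each gene under the main fit (large points) and under each processing alternative and left-out library (small points), red where the adjusted p was under 0.05. All points of Cyr61 and Ankrd1 in both comparisons of treated cells are red, from -1.42 to -1.03 and from -2.50 to -1.66 against iECDCs, whereas points of Tead1 and Tead2 lie on both sides of 0 in at least 1 panel.

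The other genes of the pathway were read from lists of the kinase cassette, upstream regulators, binding partners and further reported targets. The 7 genes of the kinase cassette (Stk3, Stk4, Sav1, Lats1, Lats2, Mob1a, Mob1b) showed 0 higher and 0 lower genes between iECDCs and pECDCs in edgeR, in DESeq2 and at an unadjusted p under 0.05. The shares of all tested genes there were 16.4%, 15.8% and 31.5%. Without iECDC replicate 3, 2 cassette genes were higher, where 31.7% of all tested genes were called. The median log2 fold change of the cassette was 0.0051, -0.25 and -0.22 in the 3 comparisons. With SB431542, Sav1, the scaffold of the MST kinases, rose from 10.1 ± 0.19 to 13.2 ± 0.81 FPKM against iECDCs (log2 fold change 0.40, adjusted p = 0.0183). Lats2, a kinase that is itself a YAP target, fell from 8.94 ± 0.47 to 7.07 ± 0.25 FPKM (-0.33, adjusted p = 0.0340). Against pECDCs, 1 gene of the cassette, Sav1 (0.29, adjusted p = 0.02005), was higher and 3 were lower in treated cells. The lower genes were Mob1b, a LATS activator, at -0.48 (adjusted p = 0.00734), Lats1 at -0.31 (adjusted p = 0.0222) and Lats2 at -0.22 (adjusted p = 0.0312). The share of all tested genes called was 30% against iECDCs and 34.8% against pECDCs. Against iECDCs, 0 genes of the cassette passed without iECDC replicate 1 or 2 or treated replicate 1 or 3, and 1 was higher and 4 were lower without treated replicate 2. All tested genes were called there at 12.3% to 13.7% and at 50.2%. Against pECDCs, 0 were higher and 1 (Mob1b) was lower without any single library other than treated replicate 2, and 1 was higher and 5 were lower without that library. The shares of all tested genes called were then 17.1% to 23.7% and 64.1%.

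Of 18 upstream regulators, 3 rose and 3 fell in iECDCs against pECDCs, 5 rose and 2 fell with SB431542 against iECDCs, and 6 rose and 2 fell against pECDCs, with medians of 0.06, 0.07 and 0.17. The shares of all tested genes called in the main fits of the 3 comparisons were 16.4%, 30% and 34.8%. Over left-out libraries the counts of upstream regulators ran from 1 higher and 1 lower (without any one pECDC library) to 5 and 4 (without iECDC replicate 3) in the first comparison. In the second they ran from 2 and 2 (without iECDC replicate 1 or 2 or treated replicate 1 or 3) to 8 and 3 (without treated replicate 2), and in the third from 2 and 1 (without pECDC replicate 1 or 3) to 10 and 5 (without treated replicate 2). In the fits with these lowest counts, 7.39% to 7.63%, 12.3% to 13.7% and 17.1% to 17.2% of all tested genes were called. In the fits with the highest counts, 31.7%, 50.2% and 64.1% were called. Dchs1, an atypical cadherin that binds FAT4, was at 5.88 ± 0.13 FPKM in pECDCs, 3.87 ± 0.018 in iECDCs and 10.6 ± 0.78 in treated cells (SD, n = 3), with log2 fold changes of -0.62, 1.47 and 0.86, all of which passed. Map4k4, a kinase that can act on LATS in parallel to MST, went from 81.9 ± 0.83 to 68.1 ± 2.5 and 111 ± 15 FPKM, with -0.28, 0.72 and 0.45, and passed in each. Rassf1, a scaffold that binds MST kinases, had 0.30, -0.93 and -0.62, and Wwc1, which acts with NF2 on LATS, rose in iECDCs (0.51, adjusted p = 0.0134). Wwc2, its paralog, fell by 0.76 on the log2 scale with SB431542 against iECDCs (adjusted p = 0.00612). Against pECDCs the treated cells gave -0.64 for Wwc2 (adjusted p = 0.00496). Csnk1e rose in iECDCs by a log2 fold change of 0.39 and Taok1 fell by 0.28 on the log2 scale. Taok3 rose with SB431542 against iECDCs (0.54, adjusted p = 0.0311) and Frmd6 was higher in treated cells than in pECDCs (0.47, adjusted p = 0.00394). With each library left out in turn (6 fits per comparison), the calls of Dchs1 held in all fits. Those of Map4k4 held in 3, 6 and 1 fits in the 3 comparisons, and those of Rassf1 in 2, 6 and 2. The other calls held in 6 fits for Wwc2, Csnk1e and Frmd6, 3 for Wwc1, 2 for Taok1 and 1 for Taok3.

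Of 15 binding partners, 13 were tested, since Vgll1 and Vgll2 did not pass the filter. In iECDCs against pECDCs 3 rose and 1 fell (2 and 0 without any one pECDC library), with SB431542 0 of 13 rose or fell against iECDCs, and against pECDCs 4 rose and 0 fell, with medians of 0.17, -0.06 and -0.04. In the comparison with iECDCs edgeR gave 1 higher and 2 lower partners at an unadjusted p under 0.05, DESeq2 called 0, the fit of all 9 libraries called 1 and 2, and without treated replicate 2 there were 1 and 3. With both iECDC replicate 3 and treated replicate 2 left out, 4 partners rose and 5 fell against iECDCs. Against pECDCs, 6 rose and 4 fell without treated replicate 2, and 1 rose and 0 fell without pECDC replicate 3. The shares of all tested genes called in the main fits were 16.4%, 30% and 34.8%. Against iECDCs the share was 43.4% at an unadjusted p under 0.05, 28.7% in DESeq2 and 41.2% with all 9 libraries. It was 50.2% without treated replicate 2 and 64.5% without both libraries. Against pECDCs it was 64.1% without treated replicate 2 and 17.2% without pECDC replicate 3. Between iECDCs and pECDCs it was 7.39% to 7.63% without any one pECDC library. Amot, an angiomotin like Amotl2, rose in iECDCs from 3.32 ± 0.27 to 5.40 ± 0.37 FPKM (log2 fold change 0.69, adjusted p = 0.000981). Wtip, a relative of Ajuba, rose as well (0.47, adjusted p = 0.00703). Btrc, which encodes a ubiquitin ligase subunit that targets phosphorylated YAP, fell (-0.29, adjusted p = 0.0257). Amot (0.86), Amotl1 (0.60) and Limd1 (0.37), a further Ajuba family gene, were higher in treated cells than in pECDCs. With each library left out in turn (6 fits per comparison), the calls in iECDCs held in 6 fits for Amot and Wtip and in 2 for Btrc. Those in treated cells against pECDCs held in 5 for Amot, 6 for Amotl1 and 4 for Limd1.

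**Figure D4:**
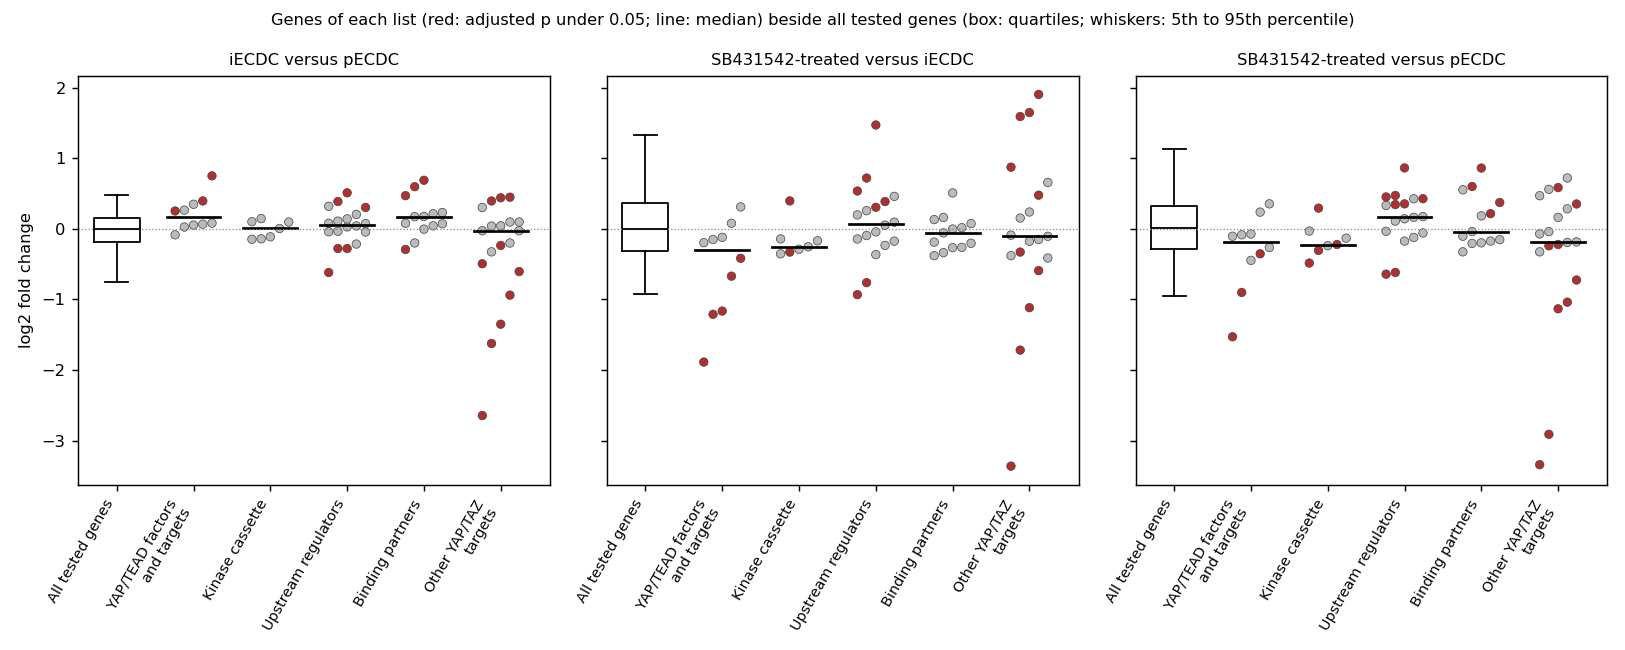
log2 fold change (vertical axis) of the genes of each list in the 3 comparisons, red where the adjusted p was under 0.05, with the median as a line, beside all tested genes as a box (quartiles) with whiskers from the 5th to the 95th percentile. Ctgf, at -3.36 against iECDCs and -2.91 against pECDCs, is among the lowest points of the other targets, which lie on both sides of 0.

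Of 19 further YAP/TAZ targets, 3 rose and 7 fell in iECDCs against pECDCs, 5 rose and 5 fell with SB431542 against iECDCs, and 2 rose and 7 fell against pECDCs. The median log2 fold change was -0.03, -0.11 and -0.18, and the shares of all tested genes called were 16.4%, 30% and 34.8%. In the first comparison these counts were 0 and 3 with all 9 libraries in the fit, 2 and 4 without any one pECDC library and 6 and 8 without iECDC replicate 3. In the second they were 3 and 1 without iECDC replicate 1 or 2 or treated replicate 1, 3 and 2 without treated replicate 3, and 7 and 9 without both libraries that stood apart. In the third they were 1 and 4 without any one pECDC library and 6 and 11 without treated replicate 2. The matching shares of all tested genes called were 4.72%, 7.39% to 7.63% and 31.7% in the first comparison. They were 12.3% to 12.8%, 13.7% and 64.5% in the second, and 17.1% to 17.5% and 64.1% in the third. Ctgf, a CCN family gene like Cyr61, moved in the same directions as Cyr61. It was at 323, 320 and 331 FPKM in pECDCs, at 431, 442 and 459 in iECDCs and at 27.4, 70.9 and 30.7 in treated cells. The groups did not overlap, and treated replicate 2 was again the highest of its group. Ctgf rose in iECDCs by a log2 fold change of 0.44 (SE 0.0612, adjusted p = 0.00176), fell by 3.36 on the log2 scale with SB431542 against iECDCs (SE 0.356, adjusted p = 0.00102) and was lower than in pECDCs (-2.91, SE 0.359, adjusted p = 0.00171).

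Other targets went in different directions. F3, the gene of tissue factor, was at 82.9 ± 1.3 FPKM in pECDCs (SD, n = 3), at 103, 96.2 and 46.5 in iECDC replicates 1 to 3 and at 37.6 ± 2.0 in treated cells, with -1.12 against iECDCs (adjusted p = 0.0178) and -1.13 against pECDCs (adjusted p = 0.000139). Without iECDC replicate 3, F3 was at -1.41 against iECDCs (adjusted p = 0.00248) and was higher in iECDCs than in pECDCs (0.26, adjusted p = 0.000270). Gadd45a, a stress response gene, fell in iECDCs (-1.35, adjusted p = 0.00113) and rose with SB431542 (1.90, adjusted p = 0.00772). Ccdc80, a matrix protein gene, was at 38.7 ± 0.48 FPKM in pECDCs, at 20.4 ± 2.1 in iECDCs and at 82.8, 31.2 and 75.9 in treated replicates 1 to 3, with -0.94 and 1.65. With treated replicate 2 left out, Ccdc80 was at 1.97 against iECDCs (adjusted p = 1.55e-06) and passed against pECDCs (1.04, adjusted p = 5.61e-13). Igfbp3 fell in iECDCs (-2.64, adjusted p = 0.000108) and was lower in treated cells than in pECDCs (-1.04, adjusted p = 0.008925). Tgfb2, a TGF-β ligand, rose with SB431542 from 0.720 ± 0.12 to 1.31 ± 0.35 FPKM (0.87, adjusted p = 0.0305) and Dock5 fell (-0.59, adjusted p = 0.0340). Foxf2 (0.45) and Dock5 (0.39) rose in iECDCs, and Arhgef17 (0.58) and Foxf2 (0.35) were higher in treated cells than in pECDCs. With each library left out in turn (6 fits per comparison), the calls against iECDCs held in 3 fits for F3, 2 for Tgfb2 and 1 for Dock5. The rise of Dock5 in iECDCs held in 2, as did the call of Foxf2 in treated cells against pECDCs. The other main-fit calls of this paragraph held in all 6.

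The genes most like each target over the 9 libraries were chosen by the smallest root mean square difference of centred log2(FPKM + 1) among 11542 genes with a mean of at least 1 FPKM. For Cyr61 these were Eef1e1, Serinc2 and Magohb, with differences of 0.0562, 0.0687 and 0.0757, where the spread of Cyr61 itself on that scale was 0.549. Eef1e1 went from 17.8 FPKM in pECDCs to 23.2 in iECDCs and 9.40 in treated cells. For Ankrd1 they were Gm45716, Procr and Pmaip1, with 0.104, 0.124 and 0.153 against a spread of 0.922. Procr, the endothelial protein C receptor gene, went from 27.5 to 34.5 and 7.86 FPKM and was, like Ankrd1, lowest among the iECDCs in replicate 3. For Amotl2 they were Cyp20a1, Tedc1 and Mmgt1 (0.0416, 0.0454 and 0.0456 against 0.195), and for Ajuba Polr1e, Wdr1 and Wdr36 (0.0457, 0.0460 and 0.0576 against 0.361). The likeness includes differences between libraries of the same group and is a description with no test.

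**Figure D5:**
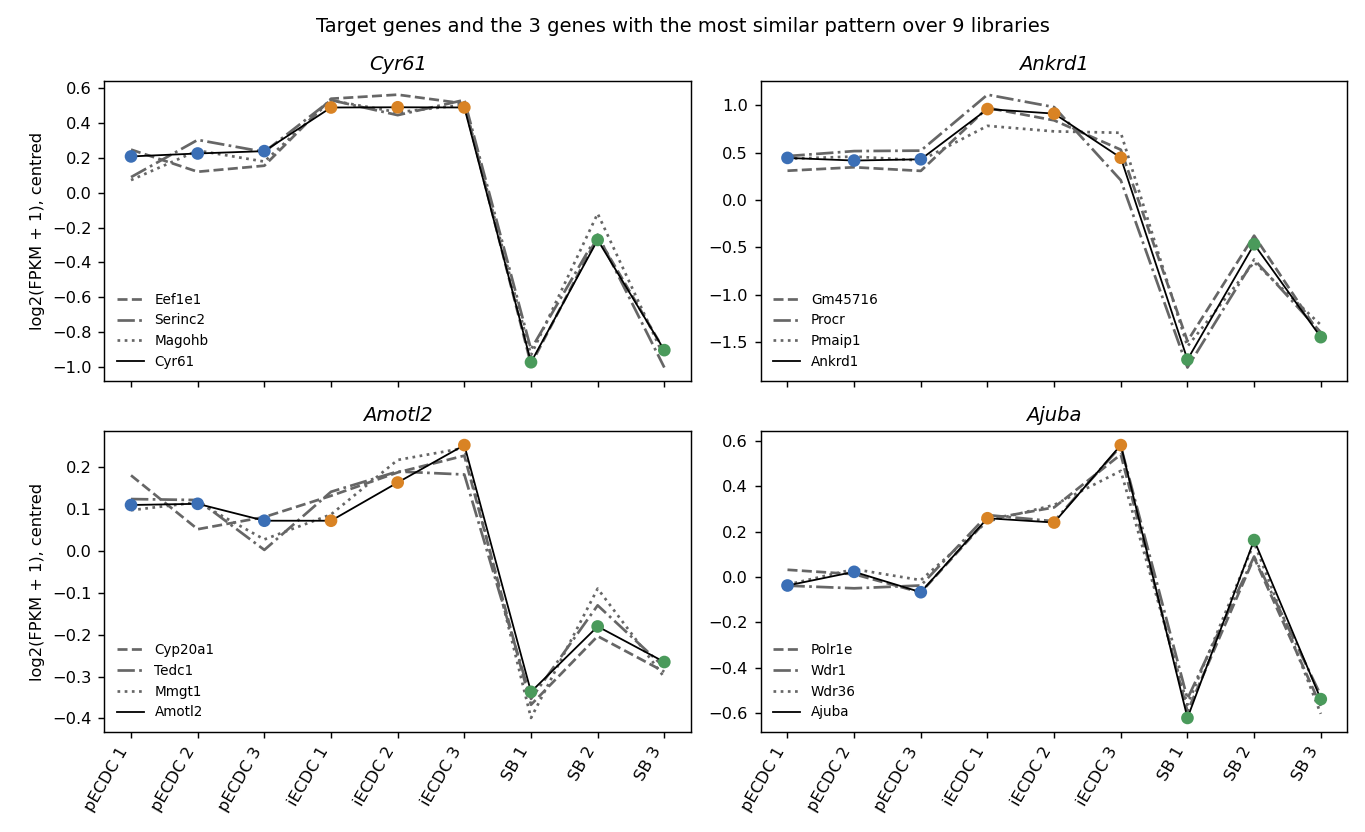
log2(FPKM + 1), centred on the mean of each gene (vertical axis), in the 9 libraries (horizontal axis; blue pECDC, orange iECDC, green SB431542-treated) for Cyr61, Ankrd1, Amotl2 and Ajuba (points and solid line) and the 3 genes most like each (broken lines). In all 4 panels treated replicate 2 lies above treated replicates 1 and 3, and in the panel of Ankrd1 iECDC replicate 3 is the lowest of its group in all 4 genes.

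The strand setting of the counting is not stated. Genes that overlap Yap1, Wwtr1, Tead1, Tead2 or Tead4 in the annotation reached at most 0.906 FPKM in any library, for the antisense-side 2310014F06Rik at Tead1.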

How the data were processed

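mRNA of 9 libraries (3 pECDC, 3 iECDC, 3 SB431542-treated, grouped by their labels) was sequenced by the authors. The submitters' processing notes name Bowtie2 2.0.6, TopHat2 2.0.9 and mm9, without roles. The coordinates of 53462 of 54532 genes in the deposited table, 9 of the 10 described here, equal those of GENCODE M21 on GRCm38. The authors deposited raw read counts per gene and FPKM values, that is, counts scaled by gene length and a library size. That size was not the total count: it was 92.8% of it in iECDC replicate 3 and 105% in treated replicate 3. Their columns of group means, fold changes and p-values were not used.

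The counts went into edgeR 4.0.16 under R 4.3.3 (TMM, filterByExpr with a minimum count of 10 and a minimum total of 15, glmQLFit and glmQLFTest, Benjamini-Hochberg over all tested genes), with only the compared libraries in the fit. SEs were derived from the F statistic. limma 3.58.1 on log2(FPKM + 1) or log2(FPKM + 0.1), DESeq2 1.42.0, other scalings, filters and left-out libraries were alternatives. The fit was tested on simulated counts with the same dispersion for all genes and no library that stood apart. That test therefore cannot tell how calls behave with such libraries. Figures used matplotlib 3.10.9. Total counts of 16568306 to 23951392 per library limit the precision of low genes such as Tead4.

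The 10 genes and the gene lists were chosen with earlier results of these data known. Of each list, up to 3 called genes with the highest and 3 with the lowest log2 fold change and a mean of at least 1 FPKM in the higher group were named per comparison, and for each target the 3 genes of most similar pattern. A gene that this rule names is not reported here.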

Additional observations from a re-analysis of the deposited data

How the results depend on the processing

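Each gene's log2 fold change was computed under 15 alternatives per comparison (16 for treated cells against iECDCs, of which the fit without both iECDC replicate 3 and treated replicate 2 was chosen after seeing the data). Of the 10 genes' values, 404 kept direction and side of the threshold, 37 lost the call, 14 gained it and 5 changed sign. All sign changes were of Tead1 and Tead2: over left-out libraries Tead1 ranged from -0.11 to 0.13 between iECDCs and pECDCs and from -0.23 to 0.0063 between treated cells and iECDCs, and Tead2 from -0.19 to 0.23 in the latter. Without both libraries Tead2 was at -0.023. Of the pathway genes named, 581 values kept their call, 122 lost it and 0 changed sign.

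Genes called over left-out libraries ranged from 1036 to 4467 between iECDCs and pECDCs (main 2258), from 1707 to 7001 between treated cells and iECDCs (4061) and from 2453 to 9188 between treated cells and pECDCs (4881). The highest values were without iECDC replicate 3 in the first and without treated replicate 2 in the others. Of the 10 genes, 0 to 4, 2 to 7 and 2 to 8 were called there. Without both libraries 8951 genes were called. With all 9 libraries in the fit, 671 genes and 0 of the 10 were called between iECDCs and pECDCs, and without a filter on low counts 5 of the 10 were. The cause was not tested.

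Deviations of same-numbered libraries from their group means correlated at 0.012, 0.037 and -0.046 between iECDCs and pECDCs, at 0.023, -0.17 and -0.24 between treated cells and iECDCs, and at -0.054, -0.015 and 0.031 between treated cells and pECDCs. The highest value of any pair was 0.21, for iECDC replicate 3 and treated replicate 2, the libraries that stood apart. With 3 libraries per group these values cannot tell whether replicate numbers pair the samples. With the number as a replicate block, 1791, 3038 and 3886 genes and 2, 4 and 3 of the 10 were called. Cyr61 lost its call in the first (adjusted p = 0.0609) and Amotl2 in the second (adjusted p = 0.107).

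From counts in place of FPKM, without division by gene length, Tead1 took 69.3%, 66.6% and 63.5% of the TEAD sum in pECDCs, iECDCs and treated cells, Tead2 21.3%, 24.2% and 26.1%, Tead4 1.06%, 1.68% and 0.725%, and Tead3 8.35%, 7.59% and 9.72%. The ratio of Wwtr1 to Yap1 was then 0.561, 0.556 and 0.574, under 1 in place of over it. Depth limits Tead4 most among the 10 genes.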
